A study of Mus musculus with 6 samples.

Results

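The RNA of 10 genes of the NF-κB, TRAF and JNK pathways was compared between *FLExDUX4* and wild-type muscle, out of 52550 mouse genes in the deposited table. The genes were the transcription factor subunits *Rela*, *Nfkb1*, *Relb* and *Nfkb2*, the inhibitors *Nfkbia* and *Nfkbib*, the adaptors *Traf2* and *Traf3*, and the kinases *Map2k7* and *Map3k6*. They were taken by symbol, as components of these pathways, with earlier results of these data known. *Map2k7* is listed on 2 rows, and the row with counts was used. All 10 were among the 13396 genes kept by the filter on low counts.

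The *FLExDUX4* mice had on 1 chromosome, at the Rosa26 locus, the human *DUX4* gene in reverse orientation between *lox* sites. They carried no Cre driver, so that only leaky, low-level transcription of the transgene was present, and the transgene itself was not analysed here. The controls were wild-type littermates without the transgene, and each group held 3 male mice. The sample labels give quadriceps muscle at 13 weeks of age, whereas the methods of the study name triceps muscle from younger mice. Libraries were made with QuantSeq, a method that sequences from the poly(A) end of messenger RNA, and the count of a gene therefore does not grow with its length. Levels of different genes can thus be set side by side without dividing by length.

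The deposited table sums the counts of the 3 mice of a genotype, which gave 13110125 counts on genes for *FLExDUX4* and 18367364 for wild-type muscle. Levels are given in CPM, the counts of a gene scaled to a library of 1e+06 counts after TMM scaling, and differences as the log2 ratio of the *FLExDUX4* level to the wild-type level. Bounds in parentheses are the ends of 95% intervals that cover counting error and nothing else. The table also holds 6 columns of single samples, which were not used because their names match no sample label. With 1 total per genotype used, there is no replicate check and no test, a single mouse can decide a ratio, and no p-value is given. All 6 skeletal muscle markers were abundant (*Ckm*, *Acta1*, *Myh4*, *Myh1*, *Mb* and *Tnnt3*, 96664 CPM in *FLExDUX4* and 96907 in wild-type muscle together). Of the limb position markers, the hindlimb gene *Pitx1* had 0 and 1 counts and *Tbx4* had 10 in each total, while the forelimb gene *Tbx5* had 14 counts in *FLExDUX4* and 34 in wild-type muscle. Summed endothelial markers stood at 147 and 168 CPM and fibro-adipogenic markers at 1048 and 939 CPM. Most of these differences came from *Kdr* (log2 ratio -0.56) and *Col1a1* (0.53), while the intervals of *Pecam1*, *Cdh5*, *Dcn* and *Pdgfra* held 0, and their part in the ratios was not tested. Adipocyte markers (*Adipoq*, *Plin1* and *Cfd*) differed the most of these lists, at 147 CPM in *FLExDUX4* and 83.6 CPM in wild-type muscle (log2 ratio 0.81, bounds 0.71 and 0.91, 3 of 3 higher), and their part in the higher values of *Relb*, *Nfkbib*, *Map2k7*, *Map3k6* and the TNF receptor genes was not tested.

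NF-κB proteins are dimers of Rel family subunits that are held in the cytoplasm by IκB proteins until the IκB kinase (IKK) complex marks the inhibitor for destruction. RelA and p50, which is cut from the *Nfkb1* product, serve the canonical arm, and RelB and p52, cut from the *Nfkb2* product p100, serve the non-canonical arm. TRAF proteins join receptors of the TNF family to both arms and to the kinase cascade that ends in JNK, and TRAF2 and TRAF3 together keep the NF-κB-inducing kinase (NIK) low. MKK7, the product of *Map2k7*, phosphorylates JNK, and ASK2, the product of *Map3k6*, acts further upstream together with ASK1, the product of *Map3k5*. In skeletal muscle these pathways are best known from atrophy, inflammation and regeneration.

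NF-κB factors bind κB sites, some of which lie in the promoters of the NF-κB and IκB genes themselves, so the promoter windows of the genes were read for such letters. RefSeq windows on GRCm38.p6, from 250 bases before to 50 after a start site, were found for 8 of the 10 genes, 11 windows in all. A match to the κB consensus on either strand was present in 5 of the 11 windows and in 8.46% of all 32851 windows. The 5 were all 3 windows of *Nfkb2*, 2 of which overlap, and those of *Nfkbia* and *Traf3*. The first window of *Nfkb2* and those of *Nfkbia* and *Traf3* are shown with the κB letters in capitals, followed by those of *Map3k6* and *Traf2*, the genes with the highest and the lowest ratio of the 10, which held no match. All are written 5′ to 3′ on the strand of the gene.
Nfkb2 (chr19:46304487-46304786, plus strand): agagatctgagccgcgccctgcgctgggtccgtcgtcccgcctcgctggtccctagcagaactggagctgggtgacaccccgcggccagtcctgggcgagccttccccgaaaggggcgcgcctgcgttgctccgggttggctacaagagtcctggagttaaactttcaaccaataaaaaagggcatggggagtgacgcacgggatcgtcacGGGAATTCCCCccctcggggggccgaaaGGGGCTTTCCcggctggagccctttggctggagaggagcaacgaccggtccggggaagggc
Nfkbia (chr12:55492598-55492897, minus strand): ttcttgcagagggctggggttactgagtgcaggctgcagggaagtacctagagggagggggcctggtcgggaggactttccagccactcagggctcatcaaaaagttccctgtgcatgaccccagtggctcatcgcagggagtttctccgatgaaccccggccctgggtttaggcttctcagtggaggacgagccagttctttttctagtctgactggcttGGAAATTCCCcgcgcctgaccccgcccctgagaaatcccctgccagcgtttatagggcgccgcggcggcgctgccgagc
Traf3 (chr12:111166120-111166419, plus strand): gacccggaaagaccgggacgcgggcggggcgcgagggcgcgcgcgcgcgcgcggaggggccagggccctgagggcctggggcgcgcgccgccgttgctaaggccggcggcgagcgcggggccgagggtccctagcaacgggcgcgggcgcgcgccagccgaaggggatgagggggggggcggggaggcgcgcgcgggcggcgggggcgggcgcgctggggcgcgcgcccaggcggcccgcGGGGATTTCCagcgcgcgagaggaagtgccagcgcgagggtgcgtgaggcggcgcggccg
Map3k6 (chr4:133240568-133240867, plus strand): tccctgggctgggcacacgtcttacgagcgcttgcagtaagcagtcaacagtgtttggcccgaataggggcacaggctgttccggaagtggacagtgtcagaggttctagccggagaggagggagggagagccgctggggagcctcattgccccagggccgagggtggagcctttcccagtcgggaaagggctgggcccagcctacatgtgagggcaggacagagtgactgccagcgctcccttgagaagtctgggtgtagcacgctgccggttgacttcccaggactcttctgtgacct
Traf2 (chr2:25546891-25547190, minus strand): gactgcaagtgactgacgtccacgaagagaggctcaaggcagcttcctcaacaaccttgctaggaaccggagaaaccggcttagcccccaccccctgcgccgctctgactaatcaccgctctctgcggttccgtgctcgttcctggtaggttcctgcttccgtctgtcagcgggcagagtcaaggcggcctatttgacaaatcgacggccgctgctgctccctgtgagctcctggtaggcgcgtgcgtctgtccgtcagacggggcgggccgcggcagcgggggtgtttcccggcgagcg

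The first *Nfkb2* window held 3 matches of which the pair starting 39 and 38 bases upstream of the start site overlaps, and the other starts 11 bases upstream. The *Nfkb2* windows that are not shown held 2 matches and 1 match, with 1 match common to both. The *Nfkbia* match starts 29 bases and the *Traf3* match 10 bases upstream of the start site. AP-1 factors include targets of JNK such as c-Jun. Letters of TGANTCA, an AP-1 pattern with any base at N, were found on either strand in 7.81% of all windows. Among the 11 windows they were present as TGAATCA in 1 further window of *Nfkb2* and as TGATTCA in 1 of *Map2k7*. A core motif bound by DUX4 was searched as well, and it was found in 0 of the 11 windows and in 2 of all windows (0.00609%). The motif is so rare over all windows that its absence here says nothing about these genes. The *Traf3* window was 84% G and C, against a median of 52.7% over all windows. These matches describe letters only, and binding was not measured.

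In both genotypes *Nfkbia* was the most abundant of the 10 genes, followed by *Map2k7*. Among genes kept, the wild-type count of *Nfkbia* was at percentile 94.1 and that of *Map3k6*, the lowest, at percentile 16.2. The highest level was 80.9 times the lowest in wild-type muscle and 65.9 times in *FLExDUX4* muscle. In wild-type muscle, the neighbours *Rela*, *Nfkbib* and *Nfkb1* (18.4, 16.4 and 15.3 CPM) could not be ordered beyond their counting intervals, nor could *Traf2*, *Relb* and *Nfkb2* (4.36, 3.45 and 3.34 CPM). In *FLExDUX4* muscle, *Nfkbib* at 26.7 CPM stood above *Rela* at 17.3 CPM, and *Map3k6* had left the last place, where *Traf2* at 1.54 CPM and *Nfkb2* at 1.77 CPM could not be ordered beyond their counting intervals.

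**Figure D1:**
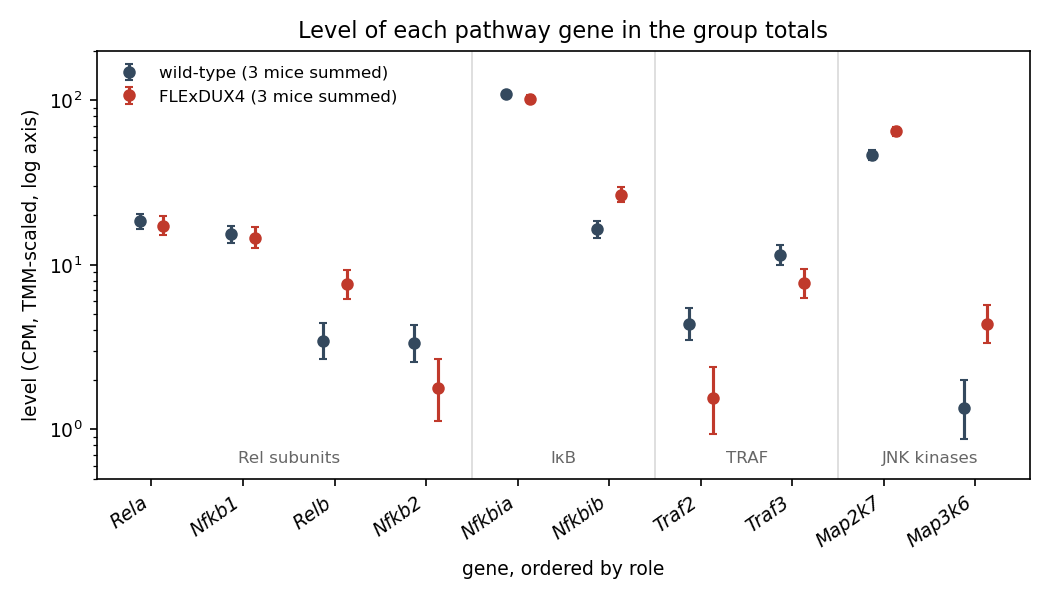
Level of each gene in CPM on a log axis for the wild-type (dark) and *FLExDUX4* (red) totals, each the sum of 3 mice, with exact Poisson 95% intervals for counting error. *Nfkbia* lies near 100 CPM in both totals, whereas *Relb*, *Nfkbib*, *Map2k7* and *Map3k6* lie higher and *Nfkb2*, *Traf2* and *Traf3* lower in *FLExDUX4* muscle, without overlap of the intervals except for *Nfkb2*.

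Of the 10 genes, 3 were at least 1.5-fold higher in *FLExDUX4* muscle (*Map3k6*, *Relb* and *Nfkbib*), against 13.1% of all genes kept. Another 2 were at least 1.5-fold lower (*Traf2* and *Nfkb2*), against 13.7% of all genes kept. The counting interval excluded 0 for 8 of the 10, against 41.1% of all genes kept. The study's own pathway results already name *Nfkbib*, *Traf2*, *Map2k7* and *Map3k6* as up or down in these data. These counts therefore depend in part on how the genes were chosen. The median log2 ratio of the 10 genes was -0.08, beside 0.00 over all genes kept (-0.003). Scaling to the ERCC and SIRV spike-in RNAs in place of TMM moved every log2 ratio by -0.28, which left 2 genes at least 1.5-fold higher (without *Nfkbib*) and 3 lower (with *Traf3*), against 7.79% and 23.8% of all genes kept. In bulk RNA, fewer cells that use a gene and less of its RNA per cell cannot be told apart.

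**Figure D2:**
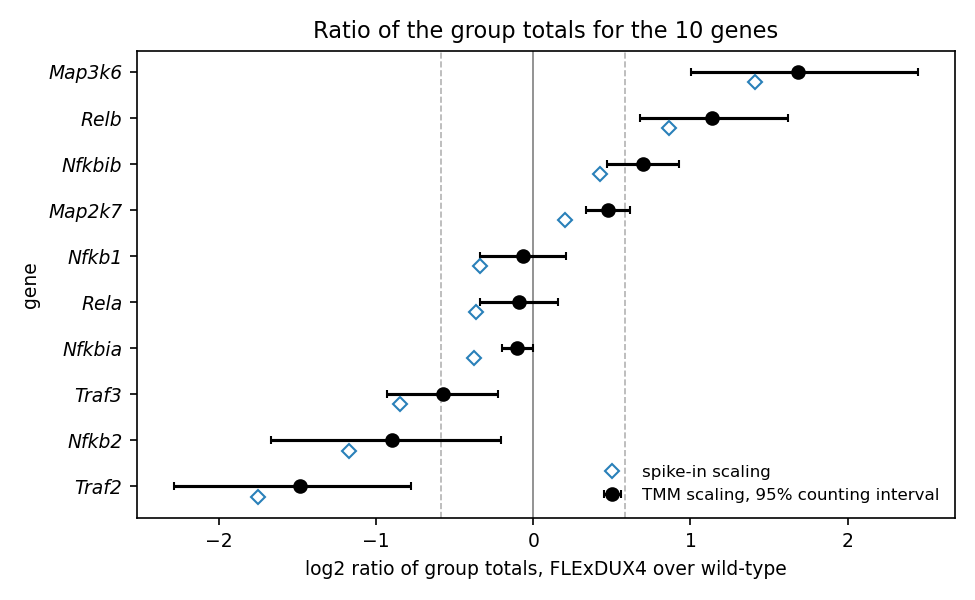
Log2 ratio of the group totals for each gene, with the 95% counting interval under TMM scaling (black) and the value under spike-in scaling (open diamonds). Dashed lines mark 1.5-fold in each direction, and the ratios run from -1.48 for *Traf2* to 1.68 for *Map3k6*.

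Few counts widen such ratios, so the share of genes past 1.5-fold depends on the count class. Among the lowest class, with under 100 counts in both totals together, 59.9% were past 1.5-fold in either direction (28.4% higher and 31.4% lower), and an interval excluded 0 for 38%. Both pathway genes of that class passed both marks, *Map3k6* as higher and *Nfkb2* as lower. Among genes with 100 to 1000 counts the share was 16.7% (8.56% higher and 8.14% lower), and 3 of 6 pathway genes were past it, *Relb* and *Nfkbib* as higher and *Traf2* as lower. *Traf2*, with 101 counts, lies at the lower edge of this class. The interval excluded 0 for 39.6% of this class and for 4 of the 6. Above 1000 counts it was 1.25% (0.844% higher and 0.404% lower), and neither *Nfkbia* nor *Map2k7* was past it, while the interval excluded 0 for both and for 49% of the class. *Map2k7* had a log2 ratio of 0.48, while 90% of the genes above 1000 counts had a ratio of 0.31 or less in size.

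**Figure D3:**
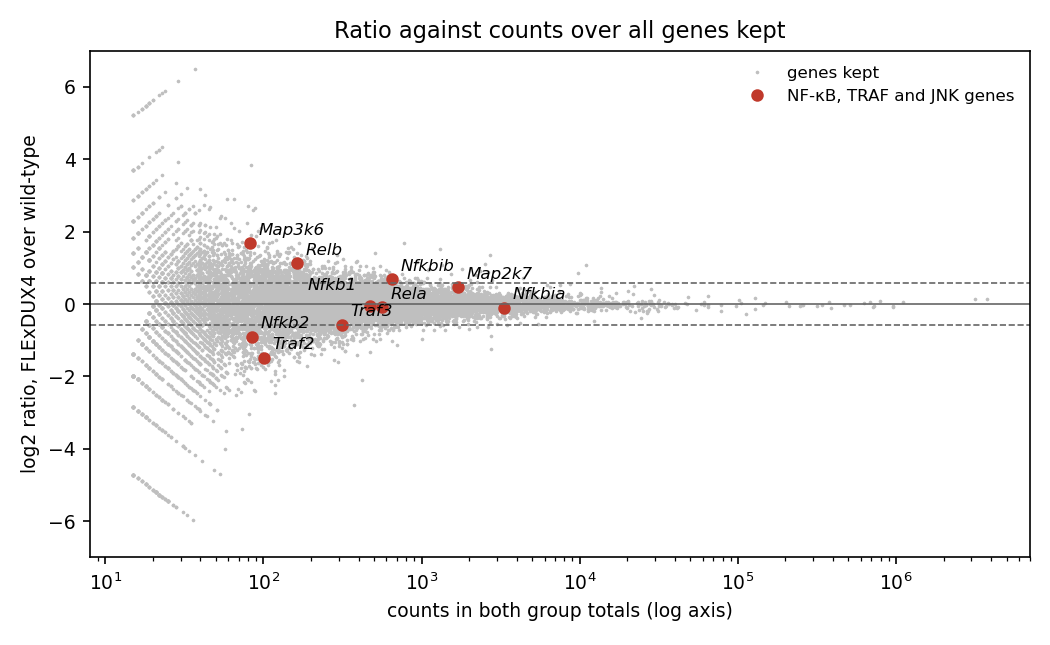
Log2 ratio against the counts in both totals (log axis) for the 13396 genes kept (grey) and the 10 pathway genes (red), with dashed lines at 1.5-fold. The grey cloud narrows as counts grow, and *Map2k7* (log2 ratio 0.48) lies above most genes of like count while *Nfkb2*, with 85 counts, lies well within it.

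Among the Rel subunits, both genes of the canonical arm differed by less than their counting intervals, and both genes of the non-canonical arm differed by more, in opposite directions. *Rela* (chromosome 19 of GRCm38, 5637483 to 5648130), which encodes the main activating subunit, had 224 counts in *FLExDUX4* and 341 in wild-type muscle (log2 ratio -0.09, bounds -0.34 and 0.16). *Nfkb1* (chromosome 3, 135584655 to 135691547), which encodes p105 and p50, had 190 counts against 284 (log2 ratio -0.06, bounds -0.34 and 0.21). Neither difference was detectable at this depth under TMM scaling, while under spike-in scaling the values were -0.37 for *Rela* and -0.34 for *Nfkb1* and both intervals lay below 0, while intervals then excluded 0 for 54.7% of all genes kept. *Nfkb1* also overlaps the gene model *Gm43430* on its own strand, which had 42 and 46 counts. *Relb* (chromosome 7, 19606217 to 19629438) had 99 counts in *FLExDUX4* and 64 in wild-type muscle, although the *FLExDUX4* total is the smaller. This gave 7.63 and 3.45 CPM and a log2 ratio of 1.14 (bounds 0.68 and 1.62), or 2.20-fold.

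*Nfkb2* (chromosome 19, deposited start 46304737), which encodes the p100 partner of RelB, had 23 counts in *FLExDUX4* and 62 in wild-type muscle (log2 ratio -0.90, bounds -1.67 and -0.20). The 4 subunits together made 41.3 CPM in *FLExDUX4* and 40.5 CPM in wild-type muscle (log2 ratio 0.03, bounds -0.13 and 0.19). *Relb* with *Nfkb2* made up 22.8% of the counts on the 4 genes in *FLExDUX4* muscle (bounds 19.3 and 26.5) and 16.8% in wild-type muscle (bounds 14.2 and 19.6). That share does not depend on the scaling, and its log2 odds ratio was 0.55 (bounds 0.13 and 0.96).

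The remaining family member *Rel*, which encodes the c-Rel subunit of lymphoid cells, had 68 counts against 52 (log2 ratio 0.90, bounds 0.36 and 1.45). Summed over 8 leukocyte markers, the level was 26.3 CPM in *FLExDUX4* and 26.0 CPM in wild-type muscle. *Itgam* was higher, at 1.85 and 0.92 CPM (log2 ratio 0.99, bounds 0.06 and 2.0018). The intervals of *Ptprc* (5.09 and 3.77 CPM), *Cd68* (1.77 and 2.80 CPM), *Adgre1* (1.85 and 2.96 CPM) and *Csf1r* (15.5 and 15.4 CPM) held 0. The T cell markers *Cd3e*, *Cd4* and *Cd8a* had at most 3 counts in either total. The part of leukocytes in the ratios of *Relb* and *Rel* was not tested.

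The inhibitors differed from each other. *Nfkbia* (chromosome 12, 55489410 to 55492647), which encodes IκBα and is itself a target of NF-κB, had 1318 counts in *FLExDUX4* and 2022 in wild-type muscle, or 102 and 109 CPM. Its log2 ratio was -0.10 (bounds -0.20 and -0.00021), so the interval ended just below 0. *Nfkbib* (chromosome 7, 28758251 to 28767512), which encodes IκBβ, had 346 counts against 305 in wild-type muscle, which is 26.7 and 16.4 CPM. The log2 ratio came to 0.70 (bounds 0.47 and 0.93), or 1.62-fold, with no overlap between the counting intervals of the levels, but it was 0.42 under spike-in scaling, short of 1.5-fold. For every count of *Nfkbib* there were 3.81 counts of *Nfkbia* in *FLExDUX4* and 6.63 in wild-type muscle.

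As a share of both inhibitors, *Nfkbib* made up 20.8% of the counts in *FLExDUX4* muscle (bounds 18.9 and 22.8) and 13.1% in wild-type muscle (bounds 11.8 and 14.5), a log2 odds ratio of 0.80 (bounds 0.55 and 1.05). The sum of both inhibitors was 128 and 125 CPM (log2 ratio 0.03, bounds -0.06 and 0.12). *Nfkbib* shares its start region with *Sirt2*, which lies on the opposite strand and had 572 and 763 counts. At its poly(A) end, from which QuantSeq reads, *Nfkbib* overlaps *Ccer2* on the opposite strand, which had 2 and 0 counts. Whether strand was used in counting is not given in the sources used here, so reads from such overlaps cannot be assigned with certainty.

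Both TRAF adaptors were lower in *FLExDUX4* muscle. *Traf2* (chromosome 2, 25517982 to 25546940), the adaptor that brings the cIAP ubiquitin ligases to TNF receptors, had 20 counts in *FLExDUX4* and 81 in wild-type muscle. This gave 1.54 and 4.36 CPM and a log2 ratio of -1.48 (bounds -2.29 and -0.78), or 2.79-fold lower. *Traf3* (chromosome 12, 111166370 to 111267153), which holds NIK in the complex that degrades it, had 100 counts against 213 in wild-type muscle, which is 7.71 and 11.5 CPM. The log2 ratio came to -0.57 (bounds -0.93 and -0.23), just short of 1.5-fold. *Traf2* made up 16.7% of the counts on both adaptors in *FLExDUX4* muscle (bounds 10.5 and 24.6) and 27.6% in wild-type muscle (bounds 22.5 and 33.0), a log2 odds ratio of -0.92 (bounds -1.79 and -0.11).

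Both JNK pathway kinases were higher in *FLExDUX4* muscle. *Map2k7* (chromosome 8, 4238740 to 4247897) had 838 counts in *FLExDUX4* and 862 in wild-type muscle, or 64.6 and 46.4 CPM. Its log2 ratio of 0.48 (bounds 0.34 and 0.61) corresponds to 1.39-fold, and it was 0.20 under spike-in scaling. *Map2k7* overlaps the protein-coding gene model *Gm49320* on its own strand, which had 0 counts in both totals. *Map3k6* (chromosome 4, 133240818 to 133252929) had 57 counts against 25 in wild-type muscle, which is 4.39 and 1.35 CPM (log2 ratio 1.68, bounds 1.0035 and 2.45). This was the highest of the 10 ratios and also the one with the fewest counts, 82 in both totals. The adipocyte markers given above were higher as well.

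The nearest relative of each kinase had an interval that holds 0. *Map2k4*, which encodes MKK4, the other kinase that phosphorylates JNK, had 538 counts against 738 (log2 ratio 0.06, bounds -0.10 and 0.22). *Map2k7* made up 60.9% of the counts on both kinases in *FLExDUX4* muscle (bounds 58.3 and 63.5) and 53.9% in wild-type muscle (bounds 51.4 and 56.3), a log2 odds ratio of 0.42 (bounds 0.20 and 0.63). *Map3k5* had 153 counts against 191 (log2 ratio 0.20, bounds -0.12 and 0.51). *Map3k6* made up 27.1% of the counts on both ASK genes in *FLExDUX4* muscle (bounds 21.3 and 33.7) and 11.6% in wild-type muscle (bounds 7.63 and 16.6), a log2 odds ratio of 1.51 (bounds 0.73 and 2.32).

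**Figure D4:**
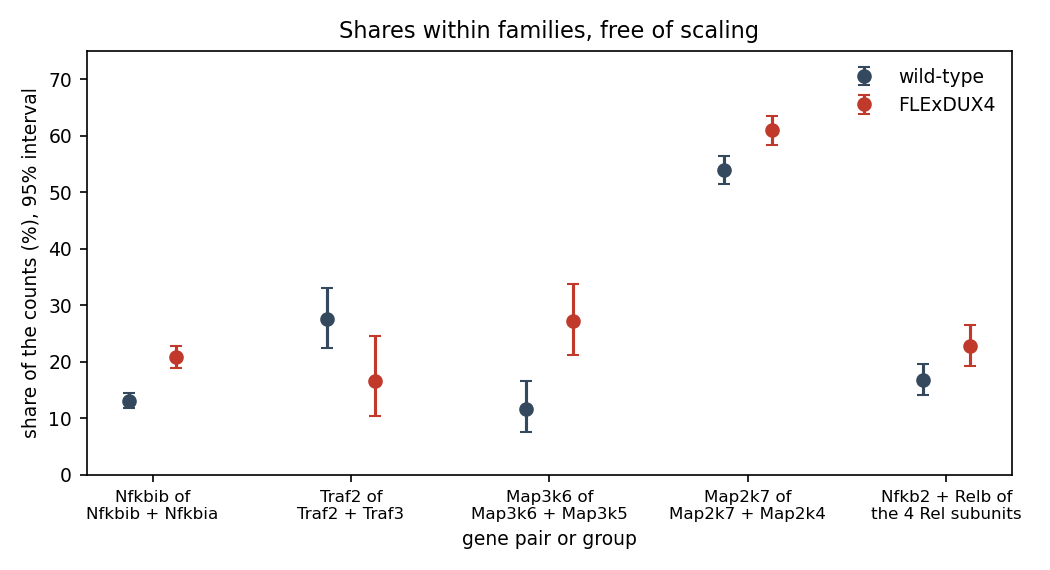
Share of the counts within each gene pair or group, in percent, for the wild-type (dark) and *FLExDUX4* (red) totals with Clopper-Pearson 95% intervals. The share of *Nfkbib*, *Map3k6* and *Map2k7* is higher and that of *Traf2* lower in *FLExDUX4* muscle, and for *Traf2* and for *Nfkb2* with *Relb* the intervals of both totals overlap.

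Summed by role, the JNK kinases made up 27.8% of the counts on the 10 genes in *FLExDUX4* and 20.8% in wild-type muscle, and the adaptors 3.73% and 6.90%. The sum over both adaptors had a log2 ratio of -0.77 (bounds -1.10 and -0.47), and that over both kinases 0.53 (bounds 0.39 and 0.66). These sums follow *Traf3* and *Map2k7*, which hold most of the counts.

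Other genes of the pathway were taken from 7 lists with 72 genes in all, of which 51 had enough counts to be compared. Of the 51, 3 were at least 1.5-fold higher and 6 at least 1.5-fold lower, beside the 13.1% and 13.7% of all genes kept. Of these, 1 of the 3 higher (*Cd40*) and 3 of the 6 lower (*Bcl3*, *Traf4* and *Tnfaip3*) passed the filter only through the total in which they were high. In the list of IKK and its upstream kinases, 0 of 9 were higher and 1 was lower, with a median log2 ratio of 0.13 that was -0.15 under spike-in scaling. The catalytic subunits *Chuk* (196 and 257 counts) and *Ikbkb* (150 and 235 counts) had ratios of 0.13 and -0.13, and the regulatory subunit *Ikbkg* had 0.35, each with an interval that holds 0. *Map3k14*, which encodes NIK, had 74 counts against 142 (log2 ratio -0.42, bounds -0.85 and -0.01). *Tab1*, an activator of the kinase TAK1, had 41 counts against 131 (log2 ratio -1.15, bounds -1.70 and -0.64).

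Among the other TRAF genes and their partners, 0 of 11 were at least 1.5-fold higher and 2 were lower, beside 13.7% of all genes kept that were lower. A negative ratio was found for 8 of the 11, with a median of -0.26, and for 50.3% of all genes kept. Under spike-in scaling all 11 were negative, 4 of them past 1.5-fold, beside 75.0% and 23.8% of all genes kept. *Traf4* had 7 counts in *FLExDUX4* and 40 in wild-type muscle (log2 ratio -1.94, bounds -3.40 and -0.82). *Tnfaip3*, which encodes the NF-κB feedback inhibitor A20, had 7 counts against 37 (log2 ratio -1.83, bounds -3.30 and -0.70). *Traf6*, the adaptor of interleukin-1 and Toll-like receptors, had 86 against 147 (log2 ratio -0.26, bounds -0.66 and 0.14). In the list of Rel and IκB relatives, 3 of 5 could be compared, and *Bcl3*, an atypical IκB protein, had 4 counts against 31 (log2 ratio -2.32, bounds -4.40 and -0.94). *Traf4*, *Tnfaip3* and *Bcl3* passed the filter through the wild-type total alone, and the counts and medians of their lists include them. *Nfkbie* had 2 and 4 counts, too few to compare.

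In the TNF receptor list, 2 of 6 genes were at least 1.5-fold higher and 0 lower, beside 13.1% of all genes kept that were higher. All 6 had a positive ratio, with a median of 0.38, beside 49.7% of all genes kept. The counts and medians of this list include *Cd40*, which entered only through the total in which it was high. Under spike-in scaling 4 of the 6 stayed positive, beside 25.0% of all genes kept, and the median was 0.10. *Tnfrsf12a*, the receptor for the cytokine TWEAK, had 39 counts in *FLExDUX4* and 27 in wild-type muscle (log2 ratio 1.03, bounds 0.30 and 1.81). Its ligand gene *Tnfsf12* had 69 against 174 (log2 ratio -0.81, bounds -1.24 and -0.41). *Cd40*, the receptor of B cells and macrophages, had 13 counts against 2 (log2 ratio 2.89, bounds 1.07 and 6.41). The wild-type total of *Cd40* lies at the floor of 3 counts and the gene passed the filter through the *FLExDUX4* total alone, so the size of its ratio is uncertain, and it was 1.63 with a pseudocount of 5. *Tnfsf12* was the only ligand of 9 that could be compared, and *Tnf* itself had 0 counts in both totals, which allows up to 3 counts in each as a one-sided limit.

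In the rest of the JNK cascade, 0 of 12 genes were at least 1.5-fold higher and 1 was lower, beside 13.1% and 13.7% of all genes kept, with a median log2 ratio of 0.09 that was -0.18 under spike-in scaling. *Map3k11*, which encodes the mixed-lineage kinase MLK3, had 24 counts against 65 (log2 ratio -0.91, bounds -1.66 and -0.23). The JNK genes *Mapk8* (425 and 556 counts) and *Mapk9* (413 and 571 counts) had ratios of 0.13 (bounds -0.06 and 0.31) and 0.05 (bounds -0.14 and 0.23). Of the NF-κB target genes, 0 of 11 were at least 1.5-fold higher and 1, *Tnfaip3*, was lower, beside the same shares, with a median of -0.03. *Tnfaip3* passed the filter through the wild-type total alone. Under spike-in scaling 4 of the 11 were lower, beside 23.8% of all genes kept, and the median was -0.31, beside -0.28 over all genes kept.

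**Figure D5:**
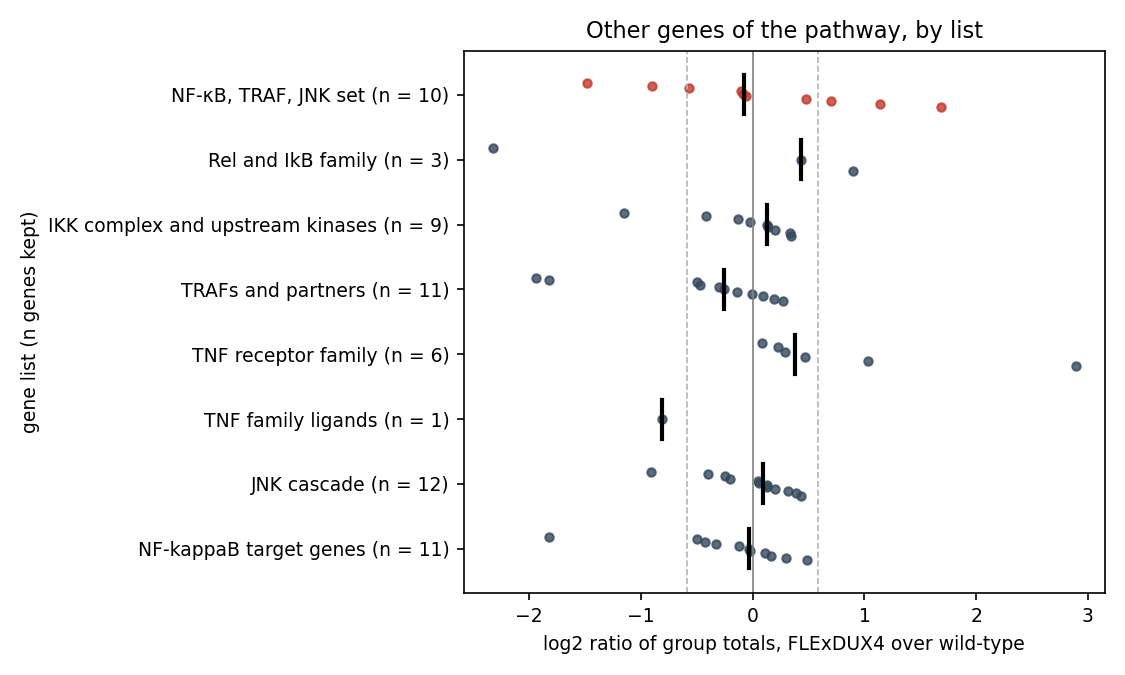
Log2 ratio of the group totals for the 10 genes (red) and for the genes of each pathway list that were kept (dark), with the median as a black bar and dashed lines at 1.5-fold. Under this TMM scaling all 6 TNF receptor genes lie above 0, beside 49.7% of all genes kept. Of the 11 TRAF partners 8 lie below 0, beside 50.3%. Spike-in scaling leaves 4 receptor genes above 0, beside 25.0%, and puts all 11 TRAF partners below it, beside 75.0%. *Cd40*, *Traf4* and *Tnfaip3* are included, though they passed the filter only through the total in which they were high.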

How the data were processed

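QuantSeq 3′ libraries were made from muscle of 3 mice per genotype. The authors trimmed reads with Cutadapt version 1.16 and aligned them with STAR version 2.5.3a to GRCm38, to which spike-in sequences had been added, and the submitters' processing notes also list featureCounts version 1.6.2. The authors deposited raw counts per gene summed over the mice of each genotype, without normalization, and these counts were used here. Another 6 columns of values per sample carry names that match no sample label and were not used. The authors' columns of their own comparison (fold change, standard error, statistic and p-values) were not used either.

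Groups were taken from the labels. Library totals held mouse genes alone. Scaling was by TMM (edgeR 4.0.16 under R 4.3.3) after filterByExpr had kept 13396 genes. Log2 ratios took a pseudocount of 0.5 in each total after scaling to a common size. Intervals are 95% Clopper-Pearson intervals for ratios and shares, exact Poisson intervals for levels and exact conditional intervals for odds ratios (Python 3.11.15, scipy 1.17.1), and they cover counting error only, since reads without molecular identifiers are not independent molecules. No test across replicates was run, because only the group totals were used. Totals of 3 counts or fewer count as the floor. The script was tested on simulated counts.

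The genes, lists and thresholds were chosen with earlier results of these data known. Genes named are the 10 genes, 11 partners fixed by name, and from each list up to 4 with the most counts among those past 1.5-fold with an interval that excludes 0. *Tnf* was named in addition after its value was seen. Coordinates are from GENCODE M21 on GRCm38, printed where the start equals the deposited one, and promoter windows are from RefSeq on GRCm38.p6. The 3 motifs searched there, and the directions of the lists under each scaling, were chosen after the data were seen. One planned leukocyte marker is not reported here and was left out of the summed level.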

Additional observations from a re-analysis of the deposited data

How the results depend on the processing

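No paired analysis was possible because only totals per genotype were used, and for the same reason no replicate was left out in turn and no replicate test was run. RLE and upper quartile scaling, the total on mouse genes, leaving out the filter, a minimum of 10 counts per total and a pseudocount of 5 kept the direction of each of the 10 genes, with values inside the counting interval. Under RLE scaling the interval of *Nfkbia* held 0, so that 7 genes in place of 8 had an interval that excludes 0, beside 41.0% of all genes kept. *Traf3* came past 1.5-fold under upper quartile scaling (-0.59), the total on mouse genes (-0.60) and at least 10 counts in each total (-0.59), which made 3 genes lower in place of 2, beside 14.0%, 14.4% and 14.0% of all genes kept. Spike-in totals moved every log2 ratio by -0.28 and took 5 genes out of their counting interval, *Rela* (-0.37), *Nfkb1* (-0.34), *Nfkbia* (-0.38), *Nfkbib* (0.42) and *Map2k7* (0.20). The cause was not tested. Of 19 other named genes, *Chuk* (-0.15), *Map2k4* (-0.22), *Mapk8* (-0.15) and *Mapk9* (-0.23) also left their interval then and, like *Map3k5* (-0.08), turned negative. None of the 10 changed direction, and with spike-in totals the interval excluded 0 for all 10, beside 54.7% of all genes kept. Shares within families do not depend on scaling, and a pseudocount of 0.5 in each count left all 5 odds ratios within their intervals. Among the 10 genes, depth limits *Traf2*, *Map3k6* and *Nfkb2* the most, with 20, 25 and 23 counts in their smaller total.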
